A study of Homo sapiens with 27 samples.

Results

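The genome holds places that piggyBac enters far more often than others, and the 300 autosomal windows of 100 kb with the most insertion sites of the unmodified piggyBac system are described here. The autosomes were cut into 28748 windows of 100 kb from base 1. Distinct sites of the unmodified system (wild-type transposon with piggyBac transposase, WT_PB below) were counted in each window, summed over its 3 libraries, and the 300 highest windows became the members. The 5 windows between 30.7 and 31.2 Mb on chromosome 4 were left out. The members are 1.04% of the autosomal windows. Since WT_PB counts chose the members, those counts are given as a description with no test, and tests use only libraries of the other 8 groups.

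All libraries came from HCT116, an established human colorectal carcinoma line that received a self-reporting transposon, whose insertions are read from RNA that runs from the transposon into the neighbouring DNA. Every group went through puromycin selection (3 µg/ml, 2 weeks), so only insertions in cells that grew through selection and that gave RNA could be listed. The 9 groups have 3 libraries each. WT_PB paired the wild-type transposon with piggyBac. The same transposon met the hyperactive transposase in WT_hyPB, the re-engineered one in WT_rePB and the re-engineered hyperactive one in WT_rehyPB. The short transposon was combined with wild-type piggyBac (short_PB) and with hyperactive piggyBac (short_hyPB). The symmetric transposon was combined with the re-engineered transposase (sym_rePB) and its hyperactive form (sym_rehyPB). WT_PBat is the wild-type transposon with piggyBat. The labels do not define re-engineered, short or symmetric. Nothing states that replicates came from separate cultures, so p-values measure only the spread between these libraries, which may be technical. The files list sites and hold no expression values, so the labelled cell type could not be checked against markers.

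PiggyBac is a cut-and-paste DNA transposon, first found in a moth, whose transposase excises the element and inserts it at the target TTAA without leaving extra bases behind. piggyBat is a related transposon from a bat. Insertion by piggyBac is known to favour open, transcribed chromatin, and genes near dense clusters of insertions have been the usual readout of piggyBac screens.

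Depth differed between groups by more than an order of magnitude. The last column of each file, taken as the total of mapped reads, was 8118085 to 12051190 in the 4 groups WT_PB, WT_hyPB, WT_rePB and WT_rehyPB, and 142666 to 256608 in the other 5 groups, called deep and shallow below. In 2 groups, libraries were linked. WT_hyPB replicate 1 had 75.4% of its sites in replicate 2, and WT_PBat replicate 1 had 52.5% of its sites in replicate 3, while other pairs within a group shared under 30%. Total counts of called or separated windows and tests of shares that rest on these pairs are also given with the pair counted once. Values and p-values of single windows use all 3 libraries.

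The target itself can be seen in the promoters inside the densest windows. RefSeq's promoter table for GRCh38.p14 gave 263 stretches of 250 bases upstream of protein-coding starts inside member windows. TTAA is its own reverse complement, so 1 search covers both strands. Of these stretches, 137 held at least 1 TTAA, and in 83 a TTAA was used by WT_PB. The 5 below were picked after their sites were seen, because all 3 WT_PB libraries entered at least 1 of their targets. The first 3 hold several targets, and the last 2 hold 1 each. Each runs 5′ to 3′ toward the gene's start, and capitals mark every TTAA.
PRKACB: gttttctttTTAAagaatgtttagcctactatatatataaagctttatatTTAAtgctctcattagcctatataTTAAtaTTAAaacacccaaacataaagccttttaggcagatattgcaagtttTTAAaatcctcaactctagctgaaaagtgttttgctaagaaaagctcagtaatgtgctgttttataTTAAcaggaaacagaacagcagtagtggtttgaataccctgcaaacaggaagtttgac
PDE4B: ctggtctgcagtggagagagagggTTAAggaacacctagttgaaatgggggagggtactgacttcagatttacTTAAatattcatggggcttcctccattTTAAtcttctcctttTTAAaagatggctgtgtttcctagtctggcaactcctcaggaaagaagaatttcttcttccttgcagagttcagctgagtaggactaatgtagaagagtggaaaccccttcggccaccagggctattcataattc
SMAD3: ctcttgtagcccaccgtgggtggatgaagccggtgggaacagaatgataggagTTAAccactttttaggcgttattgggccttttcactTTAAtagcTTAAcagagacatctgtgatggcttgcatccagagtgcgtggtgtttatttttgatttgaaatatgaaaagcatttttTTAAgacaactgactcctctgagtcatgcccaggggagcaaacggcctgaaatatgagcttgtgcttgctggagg
ARHGAP18: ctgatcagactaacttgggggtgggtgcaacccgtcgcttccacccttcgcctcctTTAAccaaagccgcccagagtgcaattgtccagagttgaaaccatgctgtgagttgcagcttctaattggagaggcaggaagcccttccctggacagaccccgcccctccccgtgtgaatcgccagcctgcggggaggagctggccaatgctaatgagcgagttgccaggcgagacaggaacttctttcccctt
ITPRID2: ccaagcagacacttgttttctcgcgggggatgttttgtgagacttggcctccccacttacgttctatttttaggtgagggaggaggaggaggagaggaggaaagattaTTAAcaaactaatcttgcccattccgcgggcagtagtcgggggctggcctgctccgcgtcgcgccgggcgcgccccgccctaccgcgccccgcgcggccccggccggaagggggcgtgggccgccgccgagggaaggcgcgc

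The first stretch lies at chr1:84144021-84144270 on the plus strand, upstream of PRKACB, which encodes a catalytic subunit of protein kinase A. Of its 6 targets, the one 241 bases before the start was listed in all 3 WT_PB libraries with peak heights of 71, 69 and 74, and in 12 of the 27 libraries. The target 176 bases before the start, with another TTAA only 6 bases further on, was listed in 0 WT_PB libraries and in 2 libraries in all. The second stretch (chr1:66354285-66354534, plus strand) precedes a start of PDE4B, a phosphodiesterase that breaks down cyclic AMP. Its target 135 bases before the start was listed in 14 libraries, and the one 150 bases before in 2. The stretch before SMAD3, a signal carrier of the TGF-beta pathway, lies at chr15:67125492-67125741 on the plus strand, and 3 of its 4 targets were used by WT_PB. The target 197 bases before the SMAD3 start was listed in 0 of 27 libraries. The stretch before ARHGAP18 lies at chr6:129710178-129710427 on the minus strand and has 1 target, which was listed in 17 libraries of 8 groups. The stretch before ITPRID2 (chr2:181891480-181891729, plus strand) also has 1 target, listed in all 12 libraries of the 4 deep groups and in 0 shallow ones. Targets a few bases apart thus differed in use within 1 promoter.

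Over all autosomal promoter stretches of 300 bases in the table, which run from 250 bases before to 50 bases after a start, 97.7% of the 29387 sites of all libraries that fell there began exactly on a TTAA. At any other offset within 3 bases the share was at most 0.0613%. TTAA occurred in 57.8% of the 455 stretches in member windows and in 46.2% of all 33725. The stretches in member windows held 462 TTAA targets, of which WT_PB used 46.8%, against 16.1% of 27413 targets elsewhere, as its own counts chose the windows. In the groups the rule did not use, the shares were 47.2% in members and 14.5% elsewhere for WT_hyPB, 46.1% and 15.2% for WT_rePB, and 41.8% and 12.6% for WT_rehyPB. Far fewer targets were listed in the shallow groups, with 4.76% and 1.07% for short_PB, 1.52% and 0.306% for sym_rePB, and 4.33% and 0.595% for WT_PBat. In each of these 6 groups the share was higher in the member windows. A TTAA that was not listed says only that no peak was listed there at this depth.

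The members held between 196 and 838 WT_PB sites summed over 3 libraries, with a median of 262.5. The median over all autosomal windows was 33, and 11.8% of them held no WT_PB site. There was no gap at the threshold, since 3 members stood at 196 and 5 windows just outside stood at 195. At the other end, 63 members held 400 or more sites and 9 held 700 or more. When the 300 windows were chosen from 2 of the 3 WT_PB libraries, 289, 292 and 293 of the members came back, and the windows so chosen held 7.91%, 8.37% and 7.95% of the sites of the library left out.

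**Figure D1:**
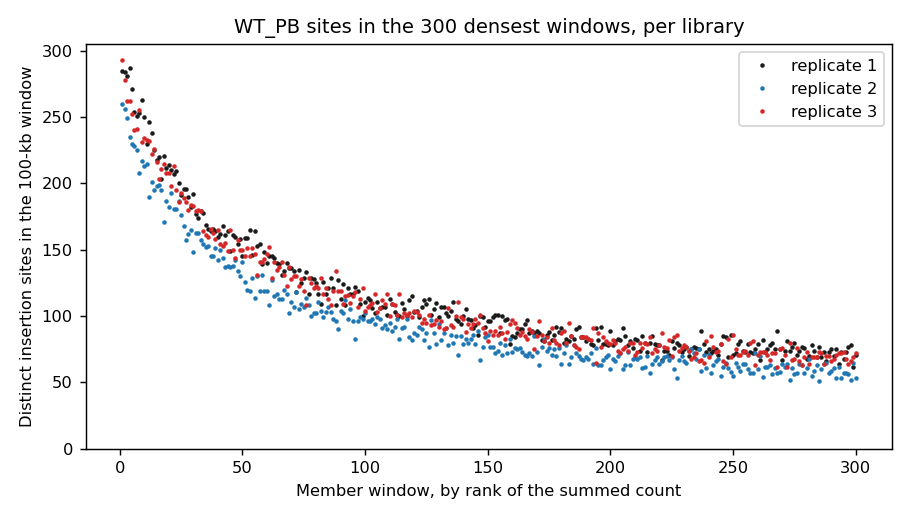
Distinct WT_PB sites in each of the 300 member windows (y axis, sites per 100-kb window) against the window's rank by summed count (x axis), with 1 point per library. The counts fall steeply over the first 50 ranks and then slowly to the last member at a summed 196, and replicate 2, the library with the fewest sites, lies below the other replicates at most ranks.

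The densest window, chr4:101100001-101200000, lies within PPP3CA, which encodes a catalytic subunit of the phosphatase calcineurin. It held 285, 260 and 293 WT_PB sites in the 3 libraries. Next came chr4:168500001-168600000 in PALLD, an actin-associated protein, with 284, 256 and 278 sites. The libraries stood close together in both windows, with replicate 2 the lowest. The third, chr8:127200001-127300000, overlaps no protein-coding gene but holds the noncoding CCAT1, a transcript named for its abundance in colon cancer, with CASC21 and CASC8. It held 281, 249 and 262 sites. The fourth, chr12:75700001-75800000, has no coding gene within 188 kb on the nearer side, KRR1 being nearest, and held 287, 235 and 262 sites. BLID, a small BH3-like protein, and the noncoding MIR100HG lie in the fifth window on chromosome 11, from 122.1 Mb, with 753 sites in all.

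Of the next windows, the one with PHLDB2, ABHD10 and TAGLN3 on chromosome 3 held 722 summed WT_PB sites and the one within VTI1A, a SNARE protein of vesicle fusion, held 716. The window with CLDND1, GPR15 and CPOX held 661. GPR15 is a receptor of gut-homing lymphocytes and CPOX an enzyme of haem synthesis. The window of TMEM67, a protein of the cilium, held 632 and that of MPP7, a scaffold of cell polarity, 609. That of NSMCE2, a SUMO ligase of the SMC5/6 complex, held 607, and that of ARHGAP18 604. The other windows among the first 20 overlap no coding gene. They include a stretch on chromosome 9 from 21.5 Mb with MIR31HG and MIR31 (711 sites, 17.7 kb from IFNE), one on chromosome 7 from 130.9 Mb with LINC-PINT (668 sites, 110.1 kb from MKLN1), one on chromosome 2 from 226.1 Mb (697 sites, 396.3 kb from NYAP2) and one on chromosome 12 from 88.9 Mb with no annotated gene at all (717 sites, 319.5 kb from KITLG).

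A position counts once per library, so the sites of a member had to lie at many positions. Each window was cut into 10 parts of 10 kb. The densest part held a median of 23.3% of the WT_PB sites, with a range from 13.7% to 49.0%. Equal parts would hold 10% each, and the densest of 10 parts lies above that even for sites placed at random. In 55 members it held more than 30%. The members held 118 to 468 distinct WT_PB positions each, and 240 to 725 positions over all 27 libraries. The 10-kb part that was densest in WT_PB was also the densest in WT_hyPB in 238 members, in WT_rePB in 226 and in WT_rehyPB in 229.

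Neighbouring windows were often members together. The 300 windows formed 188 loci, of which 121 were single windows, 41 were pairs and 26 held 3 or more adjacent windows, so 59.7% of the members had a member beside them. The longest locus, 7 windows from 65.3 to 66.0 Mb on chromosome 12, spans MSRB3, a methionine sulfoxide reductase, and HMGA2, an architectural chromatin protein. It held 1124, 1018 and 1151 WT_PB sites. On the same chromosome, 6 windows from 75.5 to 76.1 Mb hold GLIPR1, KRR1, PHLDA1 and NAP1L1, a histone chaperone, with 3073 summed sites. On chromosome 7, 6 windows from 116.2 Mb hold TES, CAV2, CAV1 and MET, which encode a focal adhesion protein, the caveolins and the receptor of hepatocyte growth factor, with 2157. A locus of 5 windows on chromosome 10 from 112.3 Mb holds TECTB, ACSL5, ZDHHC6 and VTI1A (1953 sites), and another of 5 on chromosome 3 from 114.4 Mb lies in ZBTB20, a zinc finger repressor (1662 sites).

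The loci of 4 windows were those of PPP3CA (1717 sites), of PRKACB with SAMD13, DNASE2B, RPF1 and GNG5 (1562), of MTHFD2L with the EGF receptor ligands EPGN, EREG and AREG (1487), of SCG2, AP1S3 and WDFY1 (1232) and of the histone gene cluster on chromosome 6 from 26.0 Mb with HFE, BTN3A2 and BTN2A2 (1220). Those of 3 windows with the most sites were the MIR31HG locus (1769), PALLD with DDX60L (1577), NSMCE2 (1439), MPP7 (1424), the chromosome 2 locus from 226.0 Mb without coding genes (1418), the LINC-PINT locus with MIR29A and MIR29B1 (1378), PHLDB2 with PLCXD2, ABHD10 and TAGLN3 (1376), and ITPRID2 with PPP1R1C (1308). The locus of CCAT1 and POU5F1B, a copy of the transcription factor gene POU5F1, held 1295, that of CIBAR1, RBM12B, TMEM67 and PDP1 held 1271, and that of HS3ST1, a heparan sulfate enzyme, 1038. The remaining loci of 3 windows were those of CDO1, ATG12, AP3S1, LVRN, ARL14EPL and COMMD10 (934), of DST, a cytoskeletal linker, with BEND6 (847), of DHX40, CLTC, PTRH2, VMP1, TUBD1 and RPS6KB1, which also holds MIR21 (842), of a stretch on chromosome 20 from 53.6 Mb without coding genes (815), and of PAM, a peptide-amidating enzyme (694).

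Members were not spread evenly over chromosomes. Chromosome 12 had 29 members among 1333 windows, 2.18%, followed by chromosome 10 with 1.79% and chromosome 6 with 1.70%. Chromosome 19, the most gene-rich, had 0 of 587 windows and chromosome 22 had 1 of 509. The mean number of summed WT_PB sites per window was 53.1 on chromosome 12 and 27.4 on chromosome 19, so the low count of members on chromosome 19 went with few sites there. DNA copy number was not measured.

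A protein-coding gene overlapped 222 members, 74% against 61.7% of all autosomal windows and 67.6% of the other windows with WT_PB sites. Of the rest, 69 held only other kinds of gene and 9 held none. A coding start lay in 45.2% of 279 members and in 35.2% of 27297 windows on the chromosomes in the promoter table. Windows crowded with genes were not favoured, since 1.67% of the members overlapped 5 or more coding genes against 2.73% of all windows. The 5 members with that many were all histone windows on chromosome 6, the one from 27.8 Mb overlapping 16 coding genes. The members overlapped 294 coding genes, 1.54% of the 19126 on autosomes. These were long, with a median of 44.1 kb against 24.5 kb, and a longer gene touches more windows, a part of the overlap that was not tested apart. Members without a coding gene lay a median of 65.7 kb from the nearest one, and the farthest, on chromosome 5 from 92.5 Mb, lay 983 kb from NR2F1. Overlap with a member is a statement of position and says nothing of the gene's activity.

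Gene lists for the cell type were compared with that 1.54%. Site counts given with a listed gene, here and in the next paragraph, are those of the whole member window. The part of a window covered by such a gene ran from 1.9% for VCL and 2.1% for DUSP5 to 100% for TNIK. Of 47 Wnt pathway genes, 5 overlapped a member. The transcription factor TCF7L2 touched 2 member windows with up to 251 summed WT_PB sites, DKK1, a secreted Wnt inhibitor, 1 window with 400, WNT16, a ligand, 1 with 314, RNF43, a ubiquitin ligase for Wnt receptors, 1 with 240, and the kinase TNIK 2 with up to 220. Of 45 growth factor receptor and RAS-PI3K genes, 4 overlapped a member. The windows of MET held up to 350 sites, that of EREG 385, that of AREG 246 and that of the ERK phosphatase DUSP5 215. Of 35 tumour suppressor and cell-cycle brake genes, 3 did, TGFBR2 (307), SMAD3 (up to 237) and CDKN1B (220). These are parts of TGF-beta signalling and an inhibitor of cyclin-dependent kinases.

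ZBTB20 with 453 and KLF5 with 232 were the 2 of 38 gut epithelial transcription factor genes. The cytoskeletal linkers EZR (410) and VCL (218) and the integrin ITGB1 (224) were the 3 of 42 adhesion and junction genes. Of 25 common fragile site genes, 2 did, LRP1B (313) and RAD51B (255). None overlapped a member among the listed 26 immediate early and AP-1 genes, 40 long neuronal genes, 49 chromatin regulators, 77 cytosolic ribosomal protein genes and 389 olfactory receptor genes. This covers the listed genes only. DLGAP1, a gene of 959 kb for a postsynaptic scaffold, was not on the neuronal list and overlapped the member ranked 34. MYC did not overlap a member. The lists were drawn up with earlier results of these data known, and their counts are descriptions.

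In the 24 libraries that did not choose them, the members were again dense. They held 8.82% ± 0.14 (SD, n = 3) of the autosomal sites of WT_hyPB, 6.42% ± 0.03 of WT_rePB and 7.44% ± 0.19 of WT_rehyPB, beside 8.08% ± 0.28 in WT_PB itself. Among the shallow groups, short_PB had 14.7% ± 0.30 and WT_PBat 15.1% ± 0.27, while short_hyPB had 21.3% ± 0.44, sym_rePB 22.6% ± 1.27 and sym_rehyPB 22.8% ± 0.73. Against an even spread over windows these are densities of 8.46, 6.15 and 7.13 times in the deep groups and of 14.1, 14.5, 20.4, 21.6 and 21.8 times in the shallow ones, in the order just given. Averaging the linked libraries moved neither WT_hyPB nor WT_PBat beyond the spread of its replicates.

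The libraries of different groups fell apart in most pairs. The 3 libraries of WT_rehyPB held 7.24% to 7.62%, below all of WT_hyPB (8.66% to 8.93%) and above all of WT_rePB (6.38% to 6.44%). Those of short_hyPB (20.9% to 21.7%) lay above those of short_PB (14.5% to 15.1%), while sym_rehyPB (21.9% to 23.2%) and sym_rePB (21.2% to 23.8%) overlapped, as did short_hyPB and sym_rePB, and short_PB and WT_PBat. Of 7 pairs of groups compared by two-sided exact permutation, 6 reached p = 0.1, the smallest that 3 against 3 libraries can give, or 0.117 after Benjamini-Hochberg adjustment. They were WT_rehyPB against WT_hyPB and against WT_rePB, short_hyPB against short_PB, and 3 pairs of a shallow with a deep group, namely short_hyPB with WT_hyPB, sym_rePB with WT_rePB and sym_rehyPB with WT_rehyPB. With the linked WT_hyPB libraries counted once, both pairs with WT_hyPB gave an exact p of 0.2, the smallest for 3 against 2. The remaining pair, sym_rehyPB and sym_rePB, differed by 0.218 percentage points (p = 0.8 in the same exact test). No pair could pass 0.05 in this design.

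**Figure D2:**
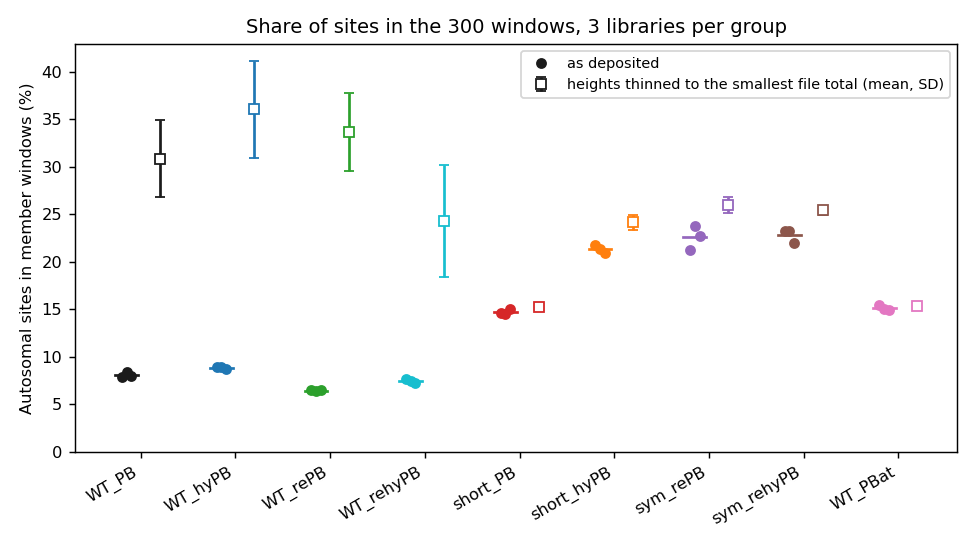
Share of autosomal sites in the 300 member windows (y axis, percent) for the 9 groups (x axis). Filled points are libraries as deposited with a bar at the group mean, and open squares with SD bars are libraries whose peak heights were thinned to the smallest file total of 142666. The shallow groups lie above the deep ones as deposited, at 14.5% and more, but after thinning the deep groups lie between 24.3% and 36.0% on average.

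Depth moved with these shares. When the peak heights of every library were thinned to a total of 142666 and sites under a height of 5 were dropped, the members' share was highest in WT_hyPB with 36.0% ± 5.15 (SD, n = 3), followed by WT_rePB with 33.6% ± 4.10 and WT_PB with 30.8% ± 4.06. WT_rehyPB had 24.3% ± 5.93, beside sym_rePB with 26.0% ± 0.89, sym_rehyPB with 25.4% ± 0.48 and short_hyPB with 24.1% ± 0.75. WT_PBat (15.3% ± 0.29) and short_PB (15.2% ± 0.33) were lowest. Most deep groups now stood above the shallow ones, although a thinned deep library kept only 117 to 515 sites. Those kept were mostly its tallest peaks, and peaks were taller in members, with a mean height of 24.5 against 16.8 elsewhere in WT_rePB. The setting thus favours members by itself, and shares or turns in direction under it are descriptions. The setting was chosen after the data were seen. Of the 3 tested pairs of a shallow with a deep group, short_hyPB with WT_hyPB and sym_rePB with WT_rePB turned in direction, and sym_rehyPB and WT_rehyPB came to lie within the spread of WT_rehyPB. The differences between deep and shallow groups as deposited are therefore not read as differences between transposons, since transposon type and depth cannot be told apart. Among the other tested pairs, WT_rehyPB against WT_rePB turned in direction as well, from 7.44% against 6.42% as deposited. WT_rehyPB stayed below WT_hyPB, and short_hyPB stayed above short_PB.

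Window by window, the deep groups kept the order of WT_PB more closely than the shallow ones. The Spearman rank correlation with the summed WT_PB count over the 300 members was 0.95 for WT_hyPB, 0.89 for WT_rePB and 0.91 for WT_rehyPB. It was 0.61 for short_PB and for short_hyPB, 0.56 for sym_rePB, 0.62 for sym_rehyPB and 0.31 for WT_PBat. The windows differ in sequence and mappability in the same way in every group, and the shallow groups have few sites per window, so these are descriptions. Of the members, 276 were among WT_hyPB's own 300 densest windows, 261 among 303 of WT_rePB and 267 among 310 of WT_rehyPB, where ties at the last place widened the sets. The numbers were 163 of 312 for short_PB, 151 of 315 for short_hyPB, 119 of 318 for sym_rePB, 131 of 310 for sym_rehyPB and 93 of 316 for WT_PBat. Sites summed over a group were above its mean window in all 300 members in the 3 deep groups, in 297 and 291 for short_PB and short_hyPB, in 244 and 264 for sym_rePB and sym_rehyPB, and in 253 for WT_PBat. Over all autosomal windows this held for 38.2%, 42.9% and 40.5% in WT_hyPB, WT_rePB and WT_rehyPB, and for 37.5%, 26.1%, 14.4%, 17.6% and 24.8% in the shallow groups in the same order. In the shallow groups the mean window held 0.316 to 0.939 sites, so any window with a site was above it.

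**Figure D3:**
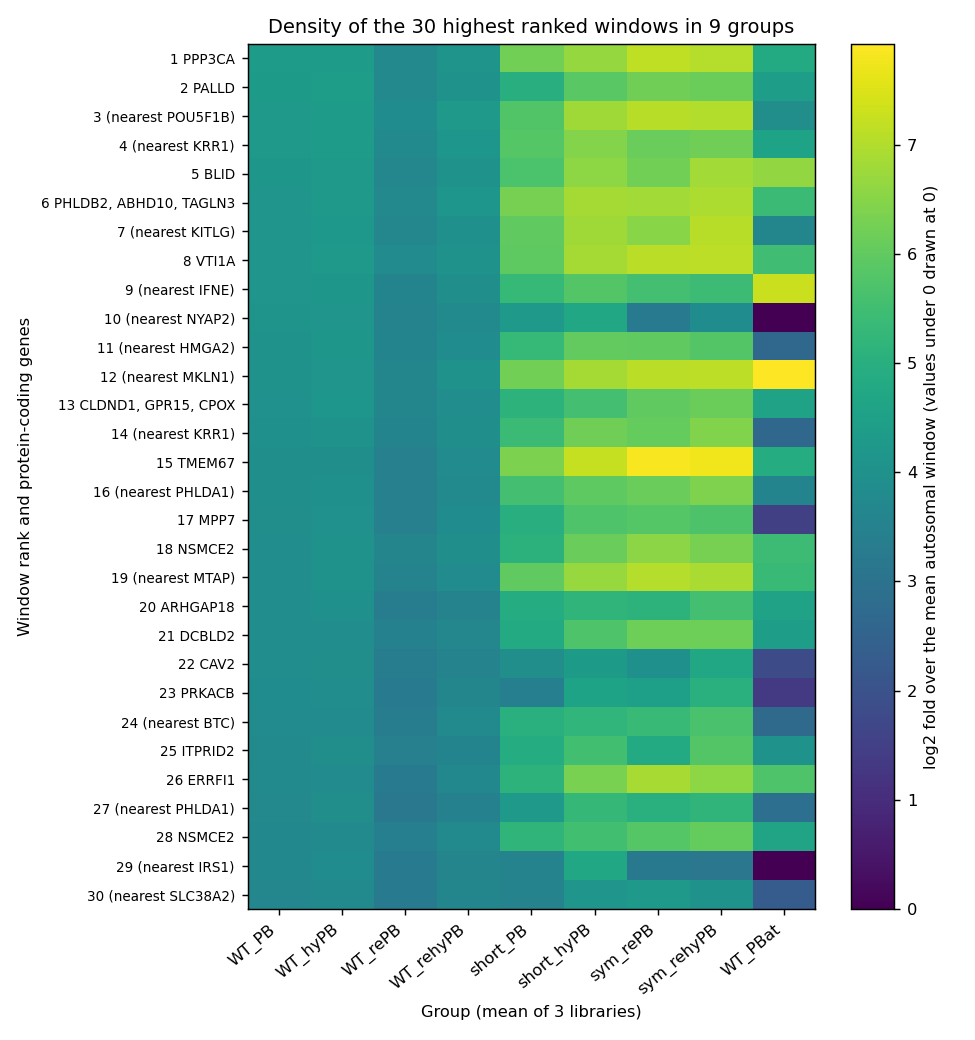
Density in the 30 highest ranked member windows (rows, with their coding genes or the nearest one) in the 9 groups (columns), as log2 of the fold over the group's mean autosomal window, mean of 3 libraries, with values under 0 drawn at 0. The deep groups form an even field, the short and symmetric columns peak at the TMEM67 window, and the WT_PBat column runs from 0 sites near NYAP2 and IRS1 to its highest value in the window nearest MKLN1.

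Among the members, the same few windows led in the deep groups. PALLD held 298, 307 and 310 sites in WT_hyPB, the most of any member, followed by PPP3CA with 311, 298 and 291. In WT_rePB the CCAT1 window led with 268, 276 and 279 sites, ahead of VTI1A with 256, 267 and 270. It led in WT_rehyPB too, with 232, 256 and 253. The third place fell to the chromosome 12 window from 75.7 Mb in WT_hyPB (894 summed sites) and in WT_rePB (789), which was second in WT_rehyPB (692), and to the PHLDB2 window in WT_rehyPB (689). In every deep library the first of these windows held more than 200 sites.

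Among the members, the TMEM67 window on chromosome 8 came first in all 4 groups with short and symmetric transposons. It held 25, 24 and 28 sites in short_PB, 34, 40 and 38 in short_hyPB, 26, 22 and 24 in sym_rePB and 29, 25 and 39 in sym_rehyPB. Per 10000 autosomal sites these were 28.5 ± 2.06 (SD, n = 3), 52.2 ± 6.29, 79.2 ± 2.34 and 75.6 ± 9.94, against 5.38 ± 0.39 in WT_PB, where this window ranked 15. The window of DLGAP1, a postsynaptic scaffold, on chromosome 18 from 3.6 Mb ranked 34 in WT_PB. It was second in short_hyPB with 38, 32 and 34 sites, in sym_rePB with 23, 19 and 16 and in sym_rehyPB with 19, 22 and 25. PHLDB2 with 74 summed sites and PPP3CA with 71 came next in short_PB. In sym_rehyPB the VTI1A window came next, with 19, 19 and 21 sites. Among the 3 leading members of each of these 4 groups, libraries differed most in the PPP3CA window of short_PB, with 19, 22 and 30 sites. This holds for sites per 10000 relative to their mean.

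At some other members the mean number of sites per 10000 was lower in the short and symmetric groups than in WT_PB. The PAM locus, with 239, 207 and 248 WT_PB sites, held 8 sites in short_PB, 3 in short_hyPB and 0 in both symmetric groups, and the 5 windows of ZBTB20, with 1662 WT_PB sites, held 27, 19, 8 and 10. Per 10000 sites PAM had 5.90 ± 0.28 (SD, n = 3) in WT_PB, and 0 of 9085 sites in sym_rePB allows up to 3.30 and 0 of 12193 in sym_rehyPB up to 2.46. These limits cover counting error only. ZBTB20 had 14.1 ± 0.47 in WT_PB and 9.99 ± 1.01, 8.82 ± 2.00, 8.99 ± 5.56 and 8.47 ± 4.50 with short_PB, short_hyPB, sym_rePB and sym_rehyPB. The locus with TMEM67 and PDP1 had 10.8 ± 0.15 in WT_PB and 41.8 ± 4.81, 81.4 ± 4.77, 116 ± 5.79 and 113 ± 1.71 in those groups. At different members the short and symmetric groups thus ran from fewer sites per 10000 than WT_PB to many more. WT_PB counts chose the members, which favours high WT_PB values there, and these groups also differ from WT_PB in depth. The values are therefore descriptions and are not read as effects of the transposon.

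Of the 8 groups, WT_PBat followed the WT_PB order of the members least closely. Its leading member was the LINC-PINT window on chromosome 7, with 65, 53 and 72 sites, or 84.3 ± 6.86 per 10000 (SD, n = 3). The window had 26.3 ± 2.08 in short_PB, which has a similar depth, and 5.65 ± 0.08 in WT_PB. The MIR31HG window came second with 44, 30 and 50 sites, 54.7 ± 9.22 per 10000 against 13.7 ± 0.78 in short_PB, and the BLID and MIR100HG window next with 25, 23 and 31, 35.0 ± 0.85 against 17.8 ± 5.80. In all 3 windows every WT_PBat library was above every short_PB library per 10000 sites. The 3 windows were picked as the members with the most WT_PBat sites, so their distance from short_PB follows in part from that choice. The locus from 26.0 Mb with histone genes, HFE, BTN3A2 and BTN2A2 had 70.6 ± 7.88 in WT_PBat and 31.5 ± 5.99 in short_PB, and the VMP1 and MIR21 locus held 105 sites in WT_PBat and 54 in short_PB.

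At the other end, WT_PBat listed 0 sites in 47 members, and in 75.2% of all autosomal windows. The densest of these was the chromosome 2 window from 226.1 Mb with 697 WT_PB sites, and its whole locus of 3 windows, with 1418 WT_PB sites, held 0 of 22543 WT_PBat sites, which allows up to 1.33 per 10000, against 29 sites or 10.7 ± 1.74 per 10000 in short_PB. That window was picked for its 0 WT_PBat sites, so its distance from short_PB follows in part from that choice. The MPP7 locus had 13 sites in WT_PBat and 64 in short_PB, and the PRKACB locus 7 and 28. The 3 WT_PBat libraries were all above the 3 short_PB libraries per 10000 sites in 51 of the 300 members, where 6.98% of the 12577 autosomal windows with a site in these groups were, and all below in 84, where 3.46% were. With WT_PBat replicates 1 and 3 averaged and counted once, the members were 58 above, where 9.15% of windows were, and 93 below, where 4.84% were. Both shares were larger among members than in the background, and members also hold more sites than most windows, so that libraries separate more readily there. Windows without a coding gene held 19.8% ± 1.31 (SD, n = 3) of WT_PBat's member sites, against 27.7% to 31.0% on average in the other 8 groups. WT_PBat replicates 1 and 3 shared sites, as given above, and replicate 2 alone held 53, 30 and 23 sites in the 3 leading windows.

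The comparison of WT_rehyPB with WT_hyPB asks whether re-engineering moves density at the members when the transposase is hyperactive. It was fitted with limma over 20778 autosomal windows with a mean of at least 5 sites per library, on log2 sites per window scaled to each library's autosomal sites. At a Benjamini-Hochberg adjusted p under 0.05, 97 of the 300 members were called, where 1.74% of all windows tested were. All 97 were lower in WT_rehyPB, against 0.996% lower and 0.746% higher over all windows. Over all windows these were 207 lower and 155 higher calls, and 466 and 120 when libraries were scaled to the median over windows. They were 214 lower and 365 higher without WT_hyPB replicate 3, and 58 and 21 with its linked replicates averaged. The median log2 difference was -0.25 in the members and 0.02 over all windows, and 13 members lay above 0. The standard error was smaller in the members, with a median of 0.088 on the log2 scale against 0.246 over all windows, so that a given difference is called more readily in them. The count fell to 40 with the linked WT_hyPB replicates 1 and 2 counted once, to 35 without WT_hyPB replicate 1 and to 39 without replicate 2. All called members in these alternatives were lower as well. The libraries held 399797 to 443542 autosomal sites in WT_hyPB and 329453 to 418636 in WT_rehyPB, and with every library thinned to 329453 sites 41 members were called. The sites kept were drawn at random, which leaves each window's expected share unchanged, so an effect of depth was not tested.

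The largest fall was in ZBTB20 on chromosome 3 from 114.8 Mb, with 31, 37 and 55 sites in WT_rehyPB and 90, 88 and 89 in WT_hyPB, a log2 difference of -0.97 ± 0.12 (SE, limma adjusted p = 3.82e-05). The window of GNAT3, a taste receptor G protein, had 37, 35 and 52 against 77, 76 and 86 sites (log2 difference -0.78). The PPP3CA window from 101.2 Mb, next to the densest one, had 64, 72 and 85 against 134, 134 and 146 (-0.73 ± 0.08, limma adjusted p = 8.70e-07). The window 89.1 kb from TCF21 had 50, 53 and 72 against 112, 104 and 107 (-0.72). That of LRP1B, a giant lipoprotein receptor gene, had 61, 50 and 83 against 116, 113 and 120 (-0.69). These 5 windows were picked as the largest called falls, so how far their groups stand apart follows from that choice. Of the 20 highest ranked members, 10 were called, among them PPP3CA (-0.28), PALLD (-0.35) and ARHGAP18 (-0.43), while the CCAT1 window stood at -0.08 ± 0.05 and the LINC-PINT window at -0.10 ± 0.05 and were not called. These calls and p-values treat the linked WT_hyPB libraries as separate, and fewer members were called with the pair counted once, as given above.

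WT_rehyPB against WT_rePB asks the same of the hyperactive form within the re-engineered transposase. This comparison shares the WT_rehyPB libraries with the one above, so they are not independent. Here 56 of the 300 members were called, where 0.39% of all windows tested were, and all 56 were higher in WT_rehyPB, against 0.332% higher and 0.0578% lower over all windows. The median log2 difference was 0.21 in the members and -0.03 over all windows, and 262 members lay above 0. The count was 37, 26 and 29 when WT_rePB replicates 1, 2 and 3 were left out in turn, 16 with sites of a peak height of at least 10 only and 27 with libraries thinned to equal site numbers. WT_rePB libraries held 531070 to 558486 autosomal sites, more than the WT_rehyPB libraries. Thinning to equal site numbers drew sites at random, so each window kept its expected share and an effect of depth was not tested. When heights were thinned to 142666 instead, the members' share was lower in WT_rehyPB (24.3% ± 5.93) than in WT_rePB (33.6% ± 4.10). The WT_rePB libraries then kept 117 to 129 sites, mostly their tallest peaks, so this turn is a description.

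The largest rise was in the window from 65.4 Mb on chromosome 11, with 67, 68 and 73 sites in WT_rehyPB against 71, 69 and 75 in WT_rePB. FRMD8, the only protein-coding gene that overlaps it, covers 13.5% of that window. WT_rePB has more sites per library, and per 10000 the values were 1.89 ± 0.15 (SD, n = 3) and 1.32 ± 0.09, a log2 difference of 0.52 ± 0.10 (SE, limma adjusted p = 0.00491). The window of GTF2F2, a general transcription factor subunit, and KCTD4 had 1.94 ± 0.19 and 1.39 ± 0.23 per 10000 (log2 difference 0.50). That of MYOF, a membrane repair protein, and CEP55, a protein of cell abscission, had 2.82 ± 0.26 and 2.06 ± 0.12 (0.45). The window 73.3 kb from FAT1, a giant cadherin, had 3.84 ± 0.23 and 2.81 ± 0.12 (0.45), and PDP1, the activator of pyruvate dehydrogenase, 3.87 ± 0.34 and 2.83 ± 0.03 (0.45). Of the 20 highest ranked members, 19 were called, with ARHGAP18 (0.18 ± 0.06, limma adjusted p = 0.204) the exception.

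**Figure D4:**
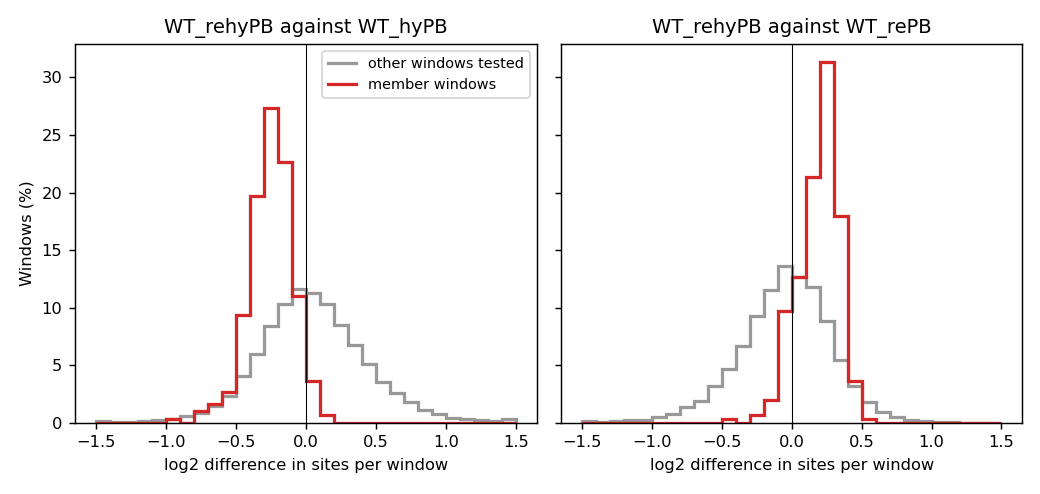
Distribution of the log2 difference in sites per window (x axis) for WT_rehyPB against WT_hyPB (left) and against WT_rePB (right), as percent of windows (y axis), with member windows in red and the other tested windows in grey. Members lie mostly below 0 on the left, with a median of -0.25, and mostly above 0 on the right, with a median of 0.21, while the grey distributions centre near 0.

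Sites inside the members differed from sites elsewhere in further measures, taken here in the 24 libraries that the rule did not use. The share inside a protein-coding gene was lower in the members in 24 of 24 libraries. It was 45.8% ± 0.17 (SD, n = 3) in members and 50.2% ± 0.27 elsewhere in WT_hyPB, 40.8% ± 1.22 and 50.6% ± 0.92 in short_PB, and 58.2% ± 1.01 and 63.7% ± 0.52 in WT_PBat. The share within 5 kb of a coding start, taken on the chromosomes in the promoter table, was also lower in 24 of 24. It was 8.87% ± 0.16 against 13.6% ± 0.07 in WT_hyPB, 10.1% ± 0.92 against 30.2% ± 0.36 in sym_rehyPB and 21.4% ± 0.99 against 30.7% ± 1.18 in WT_PBat. Members more often overlapped a coding gene than other windows, yet their sites lay in coding genes and near starts less often.

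A position was listed in both orientations more often in members, in 24 of 24 libraries, with 14.6% ± 0.35 (SD, n = 3) against 5.76% ± 0.17 in WT_hyPB and 2.87% ± 0.43 against 0.712% ± 0.10 in short_PB. A site was also listed in another replicate of its group more often in 24 of 24, with 58.7% ± 0.60 against 27.6% ± 0.37 in WT_rePB and 25.9% ± 1.08 against 11.6% ± 0.63 in short_PB. In the linked groups the library outside the pair gives 57.9% against 27.3% for WT_hyPB and 27.9% against 10.7% for WT_PBat. Both measures rise with the number of sites per window, and the part of density in them was not tested. The mean peak height was higher in members in 24 of 24 libraries, with 25.6 ± 0.68 against 16.2 ± 0.90 in WT_hyPB and 9.12 ± 0.29 against 8.59 ± 0.32 in short_PB. The median height was higher in 14 of the 24.

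**Figure D5:**
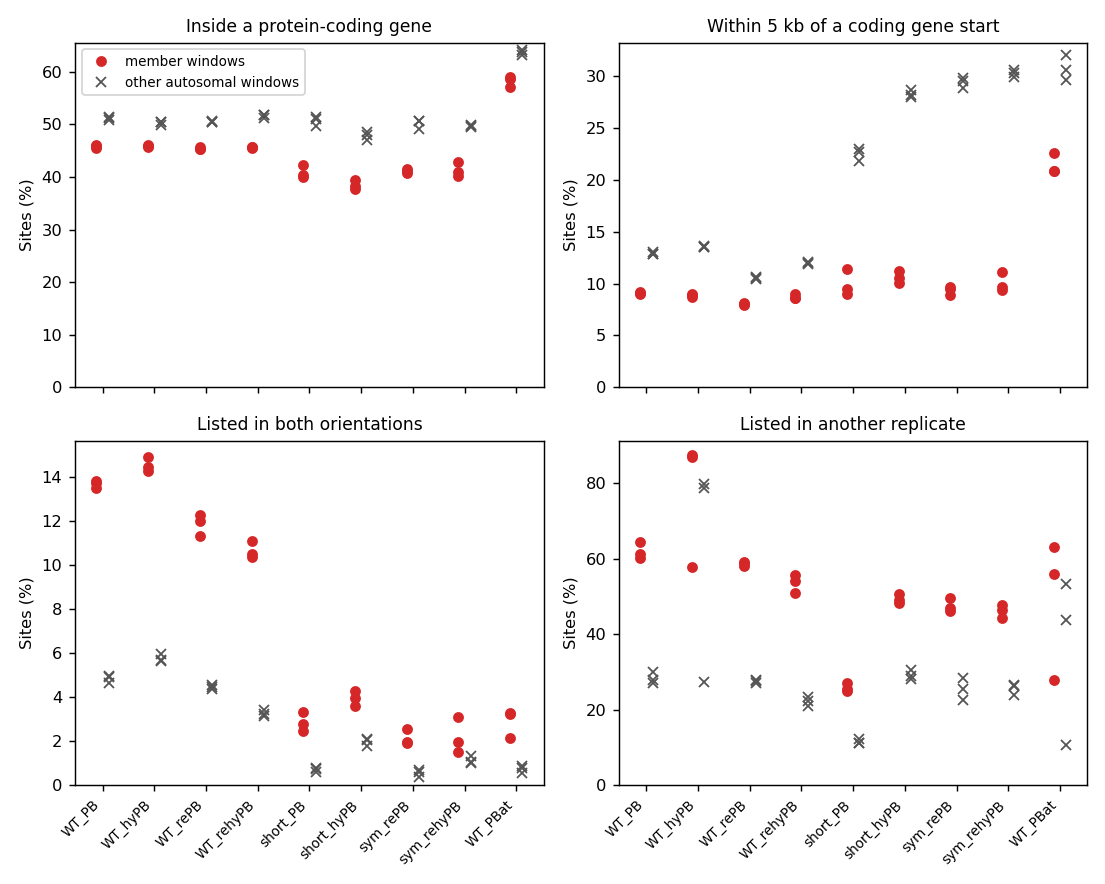
Share of sites (y axes, percent) inside a protein-coding gene, within 5 kb of a coding gene's start, listed in both orientations and listed in another replicate, for the 9 groups (x axis), with 1 red point per library for member windows and 1 cross for the other autosomal windows. Red points lie below the crosses of the same group in the upper panels and above those of the same library in the lower ones, and the spread in the lower right panel for WT_hyPB and WT_PBat comes with their linked replicates.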

How the data were processed

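Insertion sites were mapped in 27 libraries of HCT116 cells, and each library came as 1 peak list. Reads were processed with cutadapt 3.4 and HISAT2 2.2.1.0 on hg38 (GRCh38), per the submitters' processing notes, which give no roles. The peak caller and any removal of duplicates are not given in the sources used here. The deposited lists have no header. Their coverage values are signal, a sum and a maximum (height) per peak, which the authors made for each sample on its own and left unscaled, judging from the deposited numbers. No peak had a height under 5. The last column is 1 constant per file, taken as mapped reads, which no source states. Heights count PCR reads without molecular identifiers.

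A site was the start of a plus peak or the end minus 3 bases of a minus peak, counted once per library. Genes came from RefSeq (GRCh38.p14), and promoters from its table, which has no rows for chromosome 8 here. Chromosome 8 was therefore left out of measures that need a start, and the match of sites to TTAA was the check of the build. Windows were tested with limma 3.58.1 in R 4.3.3 (lmFit, eBayes with trend, prior of 0.5 sites, mean of at least 5 sites, Benjamini-Hochberg over all windows). The method was tested on simulated data. WT_PB was left out of the fit since it chose the members. Shares were compared by exact permutation, a test added after the data were seen. Replicate numbers do not pair the libraries: same-numbered libraries' deviations from their group means correlated between -0.00132 and 0.0116 over 6 pairs. Named genes were those overlapping the 20 densest members, runs of 3 or more members, the 3 leading members of each other group, the 5 largest called changes per contrast and direction, and genes of the lists. The members and lists were chosen with earlier results of these data known. Alternatives covered the window filter, prior, scale, model of the spread, replicate block, linked libraries, peak height, depth, definition of a site, window grid, and leaving out each library.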

Additional observations from a re-analysis of the deposited data

Results flagged for a closer look

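Chromosome X lay outside the rule, which took autosomes only. There, 5 of 1189 windows held 196 or more summed WT_PB sites, the lowest count of a member, and the highest held 473, from 45.7 Mb. The 5 windows left out on chromosome 4 between 30.7 and 31.2 Mb, at PCDH7, a protocadherin, would all have been members. They held 249 to 1090 summed WT_PB sites each and 4226 in all, so the densest of them lay above the 838 of the densest member.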

How the results depend on the processing

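The direction of the called members stayed lower for WT_rehyPB against WT_hyPB under every alternative run. Its count of 97 became 182 with the median over windows as the scale (all calls 120 higher and 466 lower, against 155 and 207), 153 with peak heights of at least 10, 41 with libraries thinned to 329453 sites and 40 with linked replicates averaged, and 35 to 97 with 1 library left out. For WT_rehyPB against WT_rePB the 56 became 16 with heights of at least 10, 27 with thinned libraries and 26 to 68 with 1 library left out; 1 member was lower without WT_rehyPB replicate 3. The replicate block gave 106 and 60, and the filter, the prior and voom weights changed no count of called members by over 1.5 times. Over all windows voom weights gave 53 higher and 158 lower calls for WT_rehyPB against WT_hyPB.

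The share of sites in members, with heights of at least 10, was 10.6% for WT_hyPB, 7.39% for WT_rePB, 8.27% for WT_rehyPB, 16.4% for short_PB, 26.9% for short_hyPB, 32.3% for sym_rePB, 29.6% for sym_rehyPB and 17.2% for WT_PBat. With position and strand as a site it was 9.52%, 6.84%, 7.94%, 15.2% and 21.9% in the first 5 of these, and with windows shifted by 50 kb 22.0% in short_hyPB. With heights thinned to 142666, chosen after the data were seen, it was 36.0%, 33.6%, 24.3%, 15.2%, 24.1%, 26.0% and 25.4% in the first 7, with WT_rehyPB below WT_rePB instead of above. Without 1 WT_PB library in the rule it ran from 8.82% to 8.89%, 6.42% to 6.45%, 7.44% to 7.48%, 14.8% to 14.9%, 21.3% to 21.5%, 22.7% to 22.8%, 22.9% to 23.0% and 15.0% to 15.5% in the same order of groups. The cause of these moves was not tested. Depth limits the shallow groups, where 3 counts in a window correspond to 1.11 to 3.30 per 10000 sites.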
